A study of Homo sapiens with 16 samples.

Results

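CDKN2A, CDKN2B and MTAP are 3 neighbouring human genes on chromosome 9p21, described here as they appear in 2 deposited tables of enriched Gene Ontology biological processes. They were chosen by reading the MDA231 table: every listed term whose gene column holds the Ensembl identifier of 1 of them was taken, and the HCC1954 table was searched for the same identifiers. All 3 were named in the MDA231 table and 0 of 3 in the HCC1954 table, out of 2676 genes named in either table. Being named for MDA231 is the choice itself and supports nothing. With so few genes named for HCC1954, absence there supports nothing either.

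The study grew brain-metastatic derivatives of the breast cancer lines MDA231 and HCC1954 in mouse brain for 30 days. Both arms received 5-fluorocytosine at 250 mg/kg, and brains were taken 12 hours later for Flura-seq, in which tumour cells that can convert this compound label their new RNA and an anti-BrdU antibody (2.5 µg per brain) recovers it. The 16 libraries form 4 groups of 4: immunoprecipitated (IP) and input RNA of MDA231, and IP and input RNA of HCC1954. The promoter of the converting enzyme and the number of clones behind each line are not stated in the labels. No value per library enters this account, so depth and replicate spread are unknown, and neither the direction of a listed gene nor its level can be given. The files also do not show whether the 2 tables were exchanged, so MDA231 and HCC1954 name below the table as the authors labelled it, not a line checked against its data.

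CDKN2A encodes a pair of unrelated proteins from alternative first exons. The inhibitor p16INK4a binds the cyclin D kinases CDK4 and CDK6 and keeps the retinoblastoma protein active, while p14ARF binds and inhibits MDM2, a ubiquitin ligase. CDKN2B encodes p15INK4b, a close relative of p16INK4a that is induced by TGF-beta in epithelial cells. MTAP encodes methylthioadenosine phosphorylase, which recycles a by-product of polyamine synthesis to adenine and methionine. The 3 genes are often deleted together in tumours, and the parental MDA-MB-231 line is described as having lost CDKN2A by homozygous deletion. Whether the derivative used here carries that deletion was not analysed here.

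In GENCODE 29 on GRCh38, MTAP (ENSG00000099810) lies on the plus strand of chromosome 9 from 21802543 to 21937651. CDKN2A (ENSG00000147889) follows on the minus strand from 21967753 to 21995301, and CDKN2B (ENSG00000147883) on the minus strand from 22002903 to 22009363. They span 206.821 kb in all, with 30.102 kb between MTAP and CDKN2A and 7.602 kb between CDKN2A and CDKN2B.

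An identifier per gene does not separate the products of CDKN2A. The p16INK4a and p14ARF coding sequences share 203 bases of exon, which are 43.4% of the 468 coding bases of p16INK4a and 51.3% of the 396 of p14ARF.

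CDKN2A and CDKN2B also resemble each other. The best local alignment of the p16INK4a coding sequence with the 414 coding bases of p15INK4b was 368 bases long and 86.1% identical, and it held an identical run of 80 bases. The labels state neither the read length nor what was done with reads that match both genes, so the split of such reads between the pair is uncertain.

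Overlapping annotated genes may add to this. By gene spans, introns included, the antisense RNA gene CDKN2B-AS1 covers all 6461 bases of CDKN2B and 524 bases of CDKN2A. The span of the protein-coding gene AL359922.1 covers 135016 bases of MTAP on the same strand. It also covers all of CDKN2A and CDKN2B on the opposite one. Neither overlapping gene was named in a listed MDA231 term. The overlap of exons was not measured, and the labels do not say whether counting used strand. Whether reads of the opposite-strand partners mix with those of CDKN2A and CDKN2B is therefore unknown. For MTAP, whose overlap with AL359922.1 is on the same strand, strand would not separate reads of any shared exon.

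CDKN2A was named in more terms than its neighbours. It stood in 13 of the 314 MDA231 terms (4.14%), while CDKN2B stood in 2 and MTAP in 2 others (0.637% each). The median named gene was in 2 terms, 629 genes (23.8%) were in exactly 2, and 17 of 2646 genes (0.642%) were in 13 or more. A gene annotated to many processes can be named by more terms, and the annotations per gene are not known here. These counts are therefore no result about CDKN2A. No term named any pair of the 3 genes, so the 17 terms that name them are all different. The fold given below is the share of the list in a term over the share of the background in it, and the bounds beside a fold are those of its exact 95% binomial interval. None of the 17 passed an adjusted p (the Benjamini column) of 0.05 in the authors' deposited table, where 15 of 314 terms did (4.78%). At an unadjusted p of 0.05 the authors' deposited table has 11 of the 13 CDKN2A terms, both CDKN2B terms and 0 of the 2 MTAP terms, against 68.2% of all listed terms. The listing itself ends at p = 0.0973, and the member term nearest to that limit is the broader of the MTAP terms, at p = 0.0898 in the authors' deposited table.

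**Figure D1:**
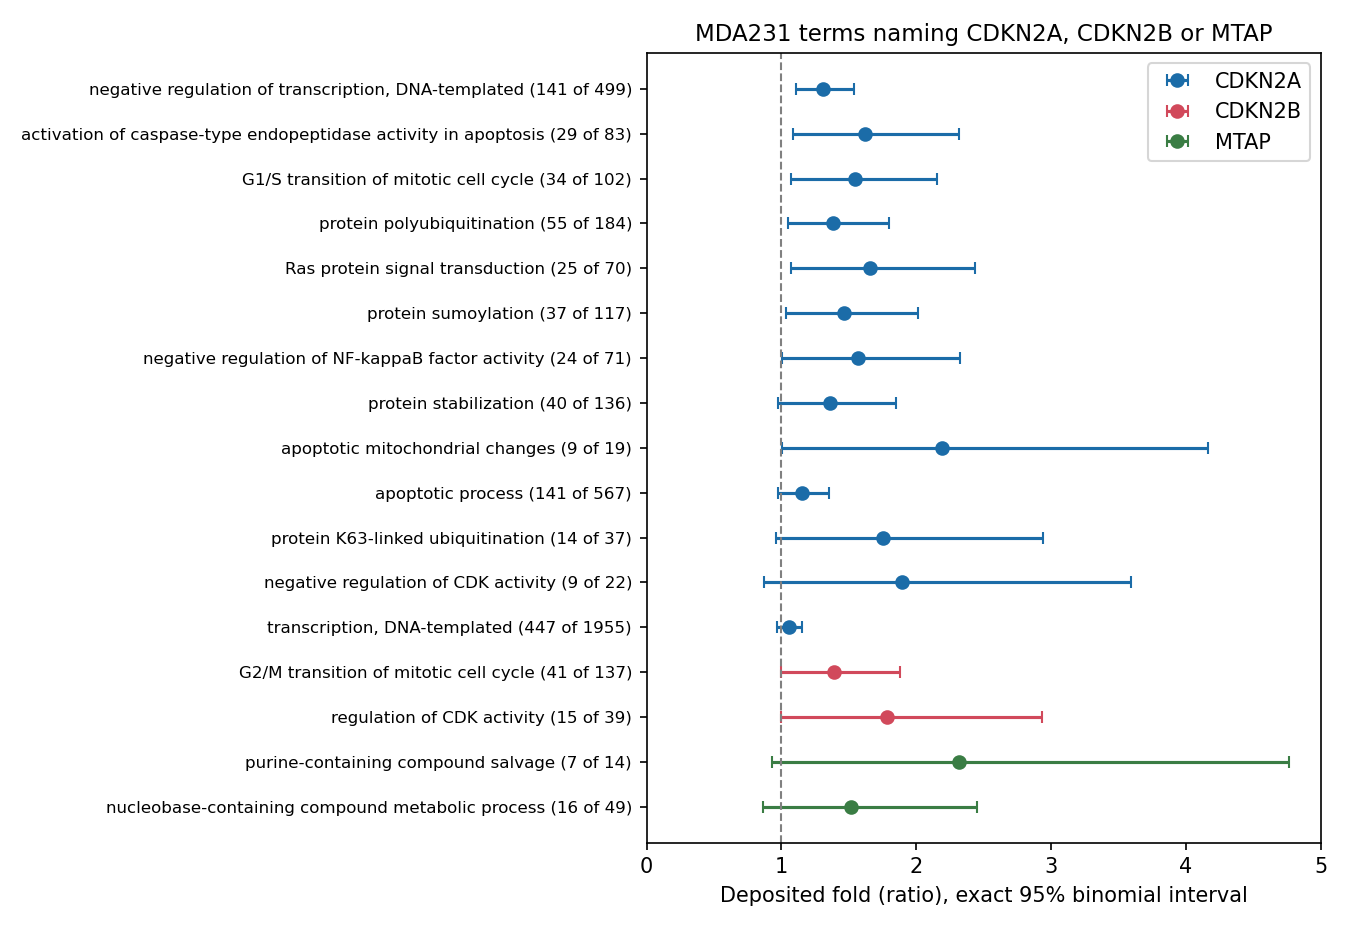
Fold enrichment (a ratio) in the authors' deposited table for the 17 MDA231 terms that name CDKN2A, CDKN2B or MTAP, with bars for exact 95% binomial intervals of the listed genes and listed of background genes in brackets. The folds run from 1.06 for transcription, DNA-templated to 2.32 for purine-containing compound salvage, and the small terms have the wide bars.

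The cell cycle terms hold the inhibitor role of CDKN2A. G1/S transition of mitotic cell cycle had 34 of its 102 background genes in the list, and the authors' deposited table gives it a fold of 1.54 (exact binomial interval 1.07 to 2.15), an unadjusted p of 0.00750 and an adjusted p of 0.539. Beside CDKN2A it named the kinases CDK2 and CDK4, the cyclin CCNE2, the inhibitors CDKN1A and CDKN1B, and SKP2, which marks CDKN1B for destruction. It also named the replication genes CDC6, CDC7, CDC45, MCM3, MCM4, ORC4, ORC5, POLA1 and POLE. Negative regulation of cyclin-dependent protein serine/threonine kinase activity was small, with 9 of 22 genes, and its fold in the authors' deposited table was 1.89, with bounds of 0.867 and 3.59 (adjusted p = 0.954). It set CDKN2A beside CDKN1A, CDKN1B, the tumour suppressors APC, LATS1 and MEN1, and the mitotic kinase PLK1. Without CDKN2A in the term, the list and the background, these folds would be 1.51 and 1.76.

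Apoptosis gave 3 terms. Apoptotic mitochondrial changes had the highest fold of any CDKN2A term, 2.19 with 9 of 19 genes, per the authors' deposited table (bounds 1.00 and 4.16; adjusted p = 0.830). Its other genes include BID and BIK, which promote cell death at the mitochondrion, PPIF, a mitochondrial cyclophilin, and the hexokinase HK2. Activation of cysteine-type endopeptidase activity, the caspase term, had 29 of 83 genes. Its fold of 1.62 (bounds 1.08 and 2.32) came with an unadjusted p of 0.00707 and an adjusted p of 0.536 in the authors' deposited table. It placed CDKN2A with the death receptors FAS, TNFRSF10A and TNFRSF10B, the adaptors FADD and TRADD, and the protease CASP8. For the broad apoptotic process term, with 141 of 567 genes, the authors' deposited table gives a fold of 1.15 (adjusted p = 0.849).

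Protein modification gave 4 terms. The authors' deposited table gives them folds between 1.36 and 1.75 and adjusted p-values between 0.551 and 0.851. Protein polyubiquitination held 55 of 184 genes, among them the ligases SIAH1, SIAH2, HUWE1 and TRAF6. Protein K63-linked ubiquitination held 14 of 37 genes and shared 4 with polyubiquitination apart from CDKN2A, which is 30.8% of its other members and 7.41% of those of polyubiquitination. The sumoylation term held 37 of 117 genes, including the Polycomb proteins CBX2, CBX8, RING1 and SCMH1 and a run of nuclear pore genes. Protein stabilization held 40 of 136 genes, with USP7, a ubiquitin protease that acts on MDM2, and CHEK2, a DNA damage checkpoint kinase.

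Transcription supplied the CDKN2A terms with the smallest and the largest p. Negative regulation of transcription, DNA-templated held 141 of 499 genes and ranked 22nd of 314 by p. Its fold was 1.31 (bounds 1.10 and 1.54), with p = 0.000323 and an adjusted p of 0.0909 in the authors' deposited table. Transcription, DNA-templated was the largest term of the whole table, with 447 of 1955 genes, and had the lowest fold of all 314 terms, 1.06 by the authors' deposited table (bounds 0.968 and 1.15; p = 0.0843). The table prints 448 identifiers for it against a count of 447, and the deposited count is used here. The remaining pair were signalling terms. Ras protein signal transduction, with HRAS and NRAS, had 25 of 70 genes; the authors' deposited table has a fold of 1.65 and an adjusted p of 0.575 for it. Negative regulation of NF-kappaB transcription factor activity, with the inhibitors TNFAIP3 and CYLD, had 24 of 71 genes. The authors' deposited table gives it a fold of 1.57 and an adjusted p of 0.750.

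The folds of these terms go with their size. The median fold over the 13 CDKN2A terms was 1.54 in the authors' deposited table, against 1.93 over all 314 terms, and their median size was 102 background genes, against 30.5. In 12 of the 13 terms the fold lay under the table's median, and 11 of the 13 were larger than the median term. The plot of fold against term size shows small terms at high folds throughout the table. Only terms with p up to 0.0973 are listed, and a small term reaches that limit only at a high fold, so the listing by itself gives small terms high folds, and the lower folds of the CDKN2A terms are no result about CDKN2A.

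**Figure D2:**
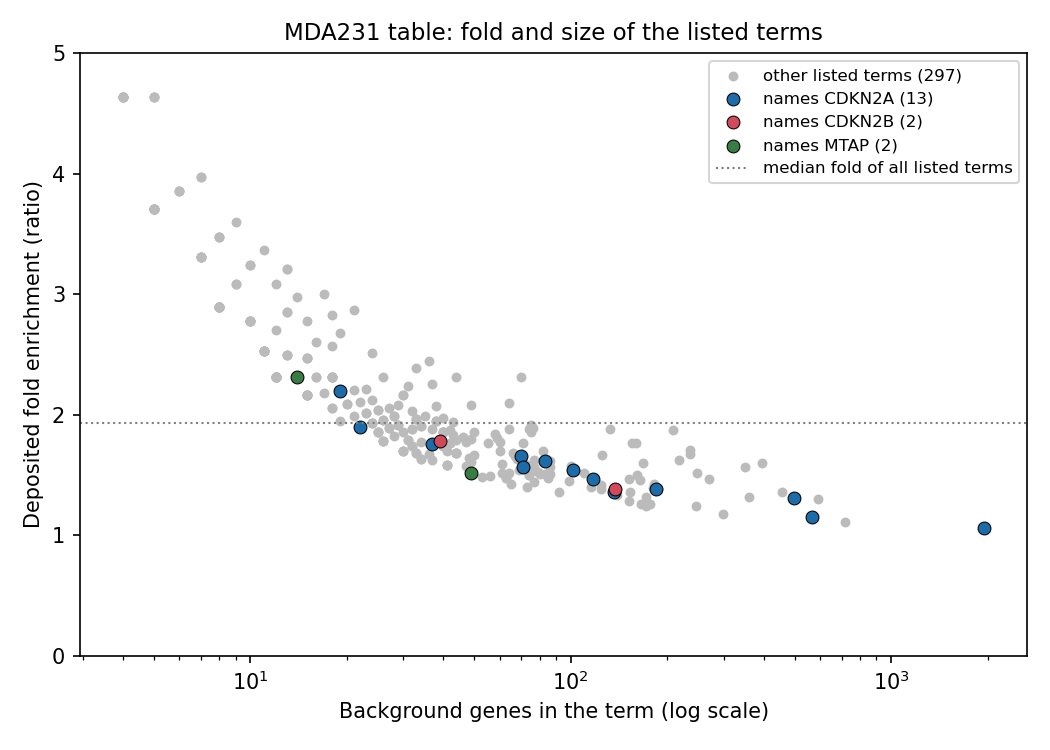
Fold enrichment in the authors' deposited MDA231 table (ratio) against the number of background genes per term (log scale), for the 13 terms naming CDKN2A, the 2 naming CDKN2B, the 2 naming MTAP and all other terms, with the median fold of all 314 terms dotted. Transcription, DNA-templated, which names CDKN2A, is the largest term and has the lowest fold of all 314. Of the 17 coloured points, 15 fall under the median of 1.93.

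CDKN2B was named in a G2/M term and in a term for the regulation of cyclin-dependent kinases. G2/M transition of mitotic cell cycle had 41 of 137 genes, and its fold in the authors' deposited table was 1.39 (bounds 0.996 and 1.88; p = 0.0219, adjusted p = 0.746). Its members include the kinases PLK1, PLK4, NEK2 and WEE1, the phosphatase CDC25B and a set of centrosome proteins such as CEP135, CEP192 and NEDD1. Regulation of cyclin-dependent protein serine/threonine kinase activity had 15 of 39 genes, and the authors' deposited table gives it a fold of 1.78 (bounds 0.998 and 2.93; p = 0.0287, adjusted p = 0.791). It named the cyclins CCNE2, CCNK, CCNT1 and CCNT2. CDKN1A, MNAT1, a subunit of the kinase that activates cell cycle kinases, and PKMYT1, an inhibitory kinase of CDK1, were in both terms. Neither term named CDKN2A, and neither G1/S transition nor negative regulation of the kinases named CDKN2B. Of the genes named beside each inhibitor, 20 were common, which is 39.2% of the 51 partners of CDKN2B and 2.55% of the 784 partners of CDKN2A. Those 784 are 29.6% of all other genes named for MDA231, and the share of 39.2% was not tested against it. CDK2, CDKN1A, CDKN1B, CHEK2, CCNE2, CDC6, PLK1 and SKP2 are among the 20 common genes.

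MTAP was named in a pair of terms of purine and nucleobase metabolism. Purine-containing compound salvage had 7 of 14 genes, the highest fold of the 17 terms at 2.32 in the authors' deposited table (bounds 0.931 and 4.77; p = 0.0610, adjusted p = 0.922). The upper bound passes 4.63, the fold of a term whose background genes are all listed, because the interval ignores the size of the term. The other 6 genes all handle purines or nucleosides: APRT, which takes up the adenine that MTAP releases; HPRT1, which salvages hypoxanthine and guanine; DCK, a deoxynucleoside kinase; the GMP reductases GMPR and GMPR2; and the AMP deaminase AMPD2. Nucleobase-containing compound metabolic process had 16 of 49 genes and a fold of 1.51 by the authors' deposited table (bounds 0.865 and 2.45; adjusted p = 0.961). TK1, TPMT, FPGS, ATIC and the nucleoside transporter SLC29A2 were among its genes. MTAP shared 3 partner genes with CDKN2A (DDX11 and POLR1H among them), which are 14.3% of its 21 partners, and 0 with CDKN2B. The partners of CDKN2A are 29.6% of all other genes named for MDA231, and CDKN2B has only 51 partners among the 2646 named genes. Neither count is therefore a result about MTAP.

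**Figure D3:**
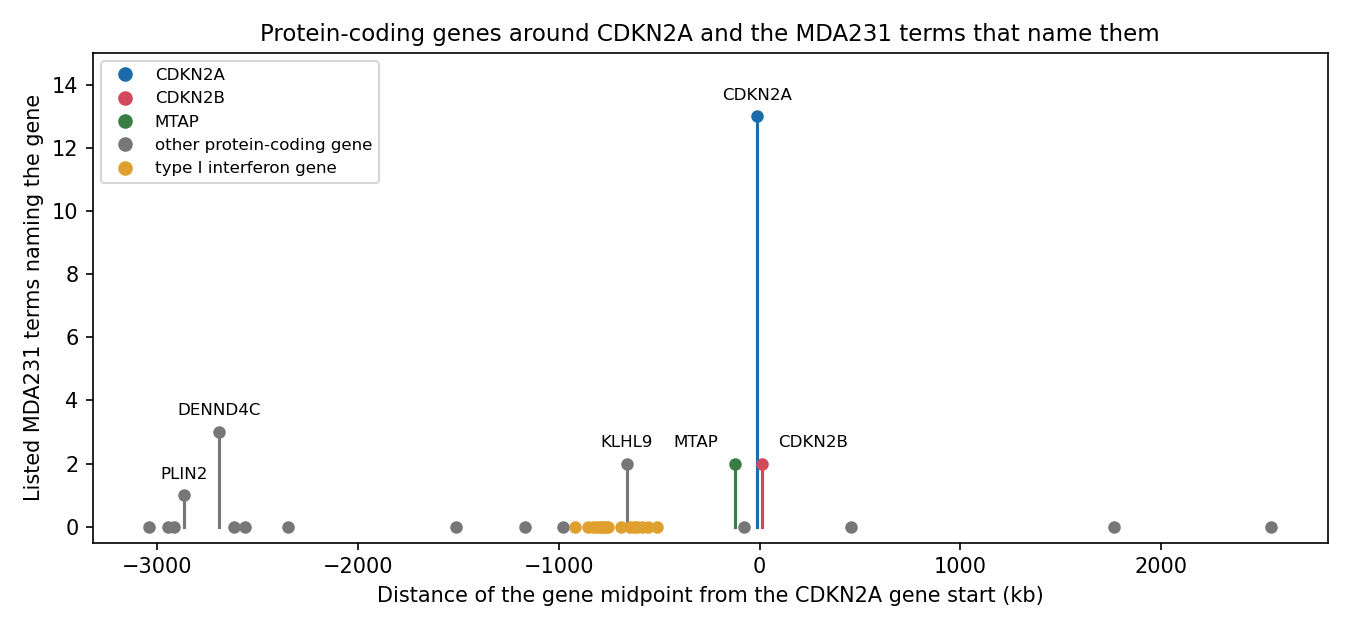
Number of listed MDA231 terms naming each of the 35 protein-coding genes within 3 Mb of the CDKN2A gene start, by distance in kb from that start. CDKN2A reaches 13 terms and DENND4C 3, CDKN2B, MTAP and KLHL9 reach 2, PLIN2 reaches 1, and all interferon genes are at 0.

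Around the locus, 3 of the 32 protein-coding genes within 3 Mb other than CDKN2A, CDKN2B and MTAP were named in the MDA231 table (9.38%), against 13.3% of all protein-coding genes of GENCODE 29 and 15.8% of the background genes. They were KLHL9, an adaptor of a ubiquitin ligase, PLIN2, a lipid droplet coat protein, and DENND4C, a regulator of Rab proteins. None of the 16 type I interferon genes in the window was named, and the 3 named genes were among 16 others. The share of 9.38% therefore depends on counting that gene family. A list of 27 neighbours on 9p had 3 named (11.1%), also KLHL9, PLIN2 and DENND4C. A gene that is in no listed term is not printed in these tables, so an unnamed neighbour may still have been in the list, which covers 21.6% of the background.

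Other genes of the same pathways were looked up in lists of fixed length. Of 5 further cell cycle inhibitors, CDKN1A and CDKN1B were named, each in 9 terms, and CDKN1C, CDKN2C and CDKN2D were not. Of 24 genes between cyclin D and E2F, 12 were named (50%): MNAT1 in 12 terms, CCNH in 11, CDK2 and HDAC1 in 10, CDK4, CCNE2 and SKP2 in 5, and CCND3, RBL2, TFDP2, TFDP1 and E2F4 in fewer. RB1, CDK6 and CCND1 were not named. On the side of ARF and MDM2, 7 of 22 genes were named (31.8%), led by MYC in 15 terms, KAT5 in 13, ATR in 11, CHEK2 in 10 and USP7 in 7, while MDM2 was not. Of 10 Polycomb proteins and related regulators of this locus, CBX8, RING1 and KDM6B were named (30%). A gene annotated to many processes can be named by more terms, and the number of annotations per gene is not in these tables, so these shares are not set against the 15.8% by a test.

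On the metabolic side of the locus, 2 of 19 genes of methionine salvage and polyamine synthesis other than MTAP were named (10.5%, against 15.8% of the background genes), AHCY and SMOX, each in 1 term and neither with MTAP. None of 7 genes of the PRMT5 methyltransferase complex and its relatives was named. PRMT5 is the enzyme that the substrate of MTAP inhibits when MTAP is lost, and 6 of the 7 symbols matched the gene table used.

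The genes whose terms were most like those of CDKN2A were BRMS1, a co-repressor known as a metastasis suppressor in breast cancer (Jaccard index 0.267, 4 terms shared), and MUL1, a mitochondrial ubiquitin and SUMO ligase (0.250, 4 shared). BCLAF1 and COMMD7 followed at 0.231 with 3 terms shared, then CDKN1A and CDKN1B at 0.222 with 4. The Jaccard index is the number of shared terms over the number of terms naming either gene, among the 314. No gene shared more than 4 of the 13 terms; 4 genes shared 4, 21 shared 3, 155 shared 2 and 604 shared 1. Of the 25 genes sharing 3 or more, all but CDKN1A were in at least 1 of the transcription, caspase or apoptotic process terms, as the plot of partner genes shows. These terms are broad: of all 784 partners of CDKN2A, 493 were in a transcription term and 155 in an apoptosis term. The count is therefore no result about the 25 genes.

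**Figure D4:**
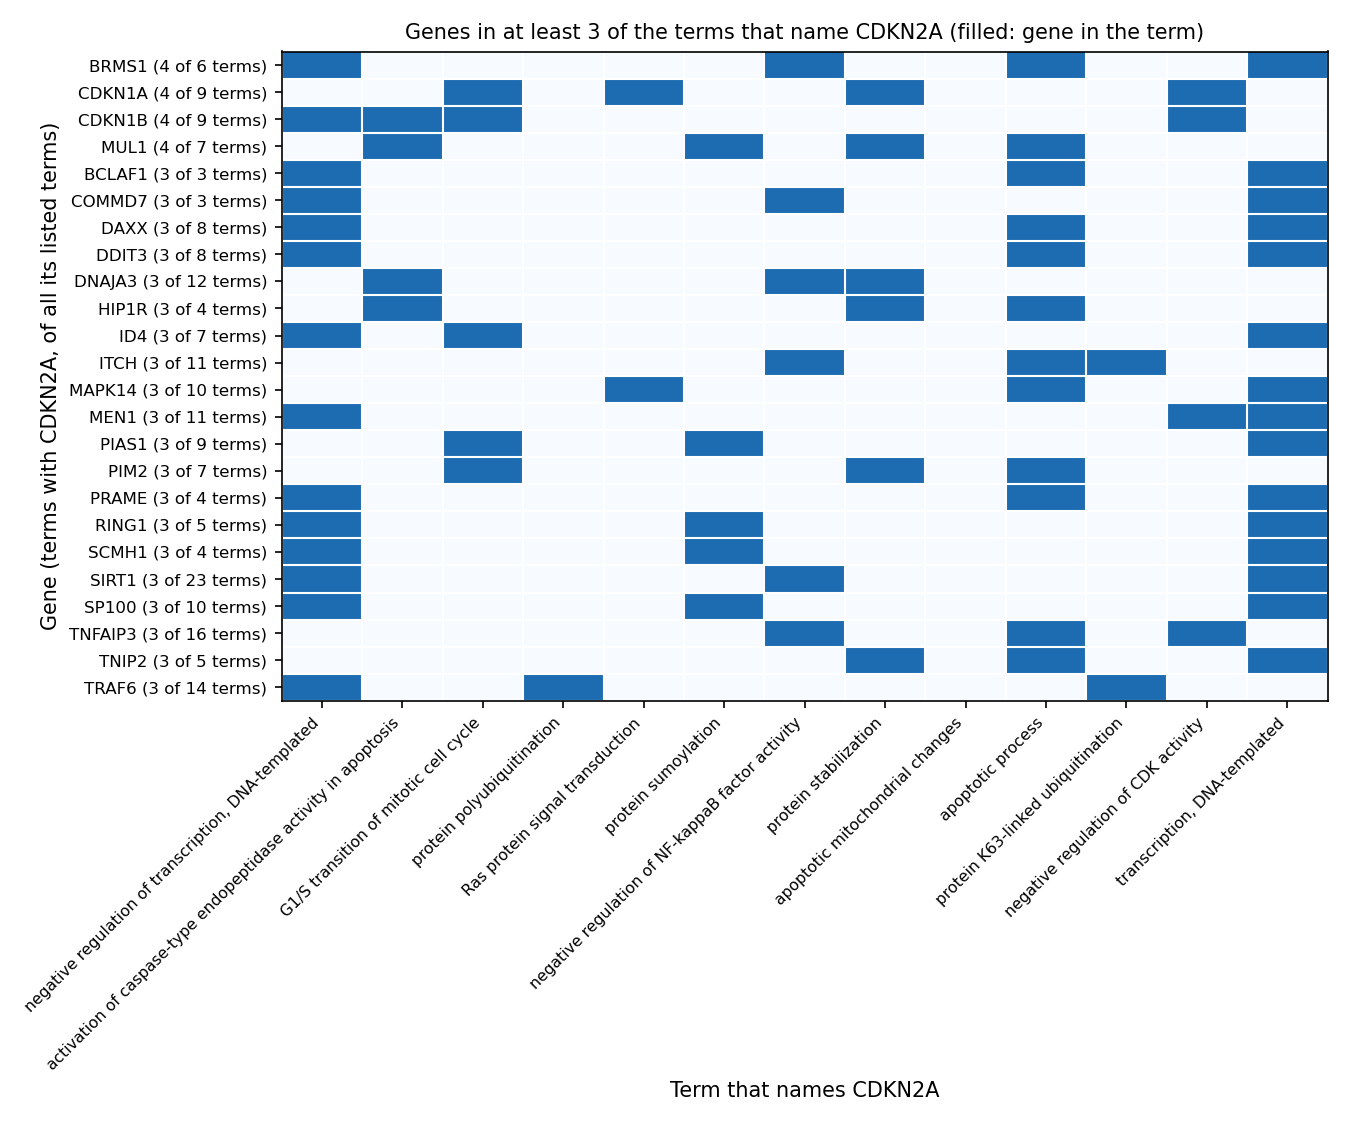
24 of the 25 genes named in 3 or more of the 13 MDA231 terms that name CDKN2A (rows, with the terms shared and all listed terms of the gene) against those terms (columns, by rising p); a filled cell means that the term names the gene. BRMS1, CDKN1A, CDKN1B and MUL1 fill 4 cells, the others 3, and apoptotic mitochondrial changes has none.

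For CDKN2B, 9 genes tied at a Jaccard index of 0.333, of which PKMYT1 shared both terms and CDK5RAP1, CEP135, CEP192, HMMR, OFD1, PLK4, PPM1D and SERTAD1 shared 1. For MTAP, 7 genes with a single listed term tied at 0.5: AMPD2, BPNT1, PRPSAP1, SLC23A2, SLC29A2, SRBD1 and TPMT. With 2 terms each, both sets show little beyond membership of the same term.

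By the Jaccard index, which stays low where terms differ in size, the 13 CDKN2A terms overlapped little, though some smaller terms lay largely inside larger ones. Of their 78 pairs, 27 shared CDKN2A alone, the median Jaccard index of their gene sets was 0.0227, and the highest was 0.192, for the transcription pair. There 94 genes were shared apart from CDKN2A, of 140 others in the smaller term (67.1%) and 447 in the larger. The caspase term and apoptotic process came next, sharing 19 genes, 67.9% of the other members of the caspase term and 13.6% of those of apoptotic process.

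The MDA231 list held 3626 genes with a biological process, against 66 in the HCC1954 list (0.393% of 16792 background genes). The 37 HCC1954 terms named 30 genes (0.179%). None was CDKN2A, CDKN2B or MTAP, and none was on any of the 7 pathway and neighbour lists above. The 2 tables had 0 named genes in common, with 2646 genes (15.8% of the background) named for MDA231. Because so few genes are named for HCC1954, a difference between the lines at this locus cannot be drawn from the 2 tables.

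Markers of cell identity were looked up in both tables, which name 15.8% of the background genes for MDA231 and 0.179% for HCC1954. For MDA231, 10 of 14 epithelial markers were named, among them CDH1, GRHL2, KRT8, KRT18, ERBB2 and ERBB3, and for HCC1954 0 of 14. Of 10 mesenchymal markers, TGFB2 and COL1A1 were named for MDA231, and AXL and TGFB1 for HCC1954. Of the brain markers, the MDA231 table named 1 of 6 for neurons (MAP2), 1 of 4 for endothelium (PECAM1), and 0 of 5 each for astrocytes and microglia, and the HCC1954 table named 0 on each of these 4 lists. All identifiers in both tables are human. That does not show which species the reads came from, so the part of mouse brain RNA in these counts was not tested. MDA231 is usually described as a mesenchymal-like line and HCC1954 as an ERBB2-amplified epithelial one; the direction of the listed genes is not known, and the part of cell identity in the naming of CDKN2A, CDKN2B and MTAP was not tested.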

How the data were processed

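Per the labels' protocols, polyadenylated RNA from mouse brains carrying human tumour cells was immunoprecipitated and made into cDNA libraries. The submitters' processing notes name STAR, HTSeq and the builds GRCh38 and GRCm38. The authors deposited 1 table of enriched terms per line; no header or label names the enrichment tool or says how genes were chosen. Per the file headers, the deposited columns are the count of listed genes, its percent of the submitted genes, the p-value, the Bonferroni and Benjamini p-values, a false discovery rate in percent, and the fold enrichment, a ratio. A column without a name, which holds −log10 p-values in the deposited tables, was not used.

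Identifiers were matched to symbols (2642 of 2646 for MDA231), and coordinates and transcripts are from GENCODE 29 (GRCh38). Each fold got an exact (Clopper-Pearson) 95% binomial interval of listed genes in the list divided by the background share. It covers the draw of genes only. It does not allow for the listing of only those terms with p up to 0.0973, or for the choice of terms by a member. The bounds are therefore no test of enrichment. No test was run, and likeness of genes was measured by the Jaccard index of their terms (5 nearest with ties; genes in at least 2 terms for CDKN2A and CDKN2B, in any term for MTAP). Terms named are all that hold a member; genes named are members, nearest genes, the genes in most CDKN2A terms and members of the lists. Partner genes beside them, the 3 Mb window, the grouping of terms by process and the genes singled out as unnamed were chosen after their values were seen. Members and lists were chosen with earlier results of these data known. A few genes and sequences are not reported here. The likeness search and the interval were tested on simulated data. Python 3.11.15, SciPy 1.17.1 and Biopython 1.88 were used.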

Additional observations from a re-analysis of the deposited data

How the results depend on the processing

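Counting only terms with an unadjusted p under 0.05 left 11 terms for CDKN2A, 2 for CDKN2B and 0 for MTAP. With the deposited false discovery rate under 5% in place of the adjusted p, 1 term naming a member passed, negative regulation of transcription (0.630%), against 0 at an adjusted p of 0.05 or 0.01. That term ranked only 22nd by p, and the share of all 314 terms under 5% was not counted. The change is therefore one of threshold and no result about the locus. No term naming a member had under 10 background genes (the smallest had 14), so dropping such terms could change nothing. Merging terms of the same member with a Jaccard index of at least 0.5 left 13, 2 and 2 terms. For CDKN2A the highest index of a pair was 0.192, so no merge was possible. The median fold of the CDKN2A terms was 1.51 with CDKN2A left out of each term, against 1.54. No term named both CDKN2A and CDKN2B as deposited, so no filter or merge of terms could change that count. With symbols from GENCODE 29, 0 members were again named for HCC1954. By the overlap coefficient 2 of 6 nearest genes were kept for CDKN2A in a set grown to 31. All 9 were kept for CDKN2B, but its set of 42 takes in every partner in at least 2 terms. All 7 were kept for MTAP, where genes in 1 term score highest by either measure. Among genes in at least 3 terms 6, 1 and 0 were kept. These counts were fixed in advance: the 6 CDKN2A genes already met that limit, while the MTAP genes and all CDKN2B genes but PKMYT1 could not. No paired analysis was possible because the tables hold no value per library, and for the same reason no replicate could be left out. Depth is unknown here, and small terms limit the folds.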
